A study of Mus musculus with 2 samples.

Results

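GABAergic Slc6a5-negative inhibitory neurons of the injured mouse spinal cord were described from single-nucleus RNA counts. A nucleus was taken when it had more than 1500 unique molecular identifiers (UMIs, counted RNA molecules), under 5% of them from mitochondrially encoded genes, and at least 8 UMIs summed over the neuronal genes Snhg11, Rbfox3, Syt1 and Celf4. It also needed at least 2 UMIs summed over Gad1, Gad2 and Slc32a1, none of Slc6a5, at most 1 of Slc17a6 and at most 1 summed over the cholinergic genes Chat and Slc5a7. The rule found 1192 nuclei among 32380 barcodes, 476 in the PBS library and 716 in the AEVs library. They belonged to 8969 neuronal nuclei by the same neuronal limit (3698 and 5271) and to 25256 nuclei past the depth and mitochondrial limits (11866 and 13390).

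Both groups were wild-type C57BL/6 mice aged 6 to 8 weeks with a contusion at T10, a thoracic level, made by a 5 g rod of 1 mm diameter falling 6 cm. The PBS group received tail-vein injections of 100 µL phosphate-buffered saline on each of 5 days, and the AEVs group received 100 µg of vesicle protein in the same volume, where AEVs are athlete-derived extracellular vesicles. Cords were taken on day 7, and each group's library came from the pooled cords of 3 mice. With 1 library a group no difference has a replicate check, library and treatment cannot be told apart, and every interval below is a 95% interval for counting error only.

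The 2 libraries shared 177 barcodes, of which 8 were GABAergic Slc6a5-negative nuclei in PBS and 5 in AEVs, none in both. Median depth of these nuclei was 9600.5 UMIs in PBS and 8013.5 in AEVs, with medians of 3769.5 and 3554 detected genes, and their totals were 4690768 and 6068954 UMIs. The mean share of mitochondrially encoded UMIs was 0.267% and 0.137%. Levels below are UMIs out of each 1000000 summed over these nuclei (counts per 1000000, CPM), and a log2 ratio is that of the AEVs over the PBS level. Where values come in pairs, PBS is given first.

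GABA is the main inhibitory transmitter of the dorsal horn and shares the spinal cord with glycine. The enzymes Gad1 and Gad2 make it, the vesicular transporter Slc32a1 loads both GABA and glycine, and the plasma membrane transporter Slc6a5 supplies glycine to glycinergic terminals. Inhibitory neurons of the superficial dorsal horn are known to limit touch, itch and pain signals and are grouped by their peptides and calcium-binding proteins, among them Npy, Gal, Pdyn, Penk, Nos1, Pvalb and Calb2. Another GABAergic group, the cerebrospinal fluid-contacting neurons at the central canal, carries the channel gene Pkd2l1.

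The genes of the rule are given as a description only. Gad1 (mm10, chromosome 2, 70553072 to 70602014, plus strand) stood at 204 CPM in both libraries, and Gad2 (chromosome 2, 22622205 to 22693874, plus strand) at 267 and 244. Slc32a1 (chromosome 2, 158610767 to 158615748, plus strand) stood at 167 and 216 CPM. Each was near background in nuclei rich in oligodendrocyte markers, where Gad1 was at 4.21 and 6.06 CPM. Gad1 was seen in 77.1% and 73.3% of the nuclei, Gad2 in 82.6% and 79.3%, and Slc32a1 in 75.0% and 78.5%. These levels follow from the rule, which asked for the 3 genes.

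Nxph1, a secreted ligand of neurexins that was fixed as a marker of these cells and is outside the rule, stood at 1827 and 1310.4 CPM. It was at 857 and 764 CPM in Slc6a5-positive inhibitory nuclei (at least 2 Slc6a5 UMIs) and at 306 and 232 in Slc17a6-positive nuclei (at least 2 UMIs of the glutamate transporter Slc17a6 and at most 1 over Gad1, Gad2 and Slc32a1). The level of Nxph1 in the GABAergic Slc6a5-negative nuclei was the highest of the 3 neuronal sets in both libraries.

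**Figure D1:**
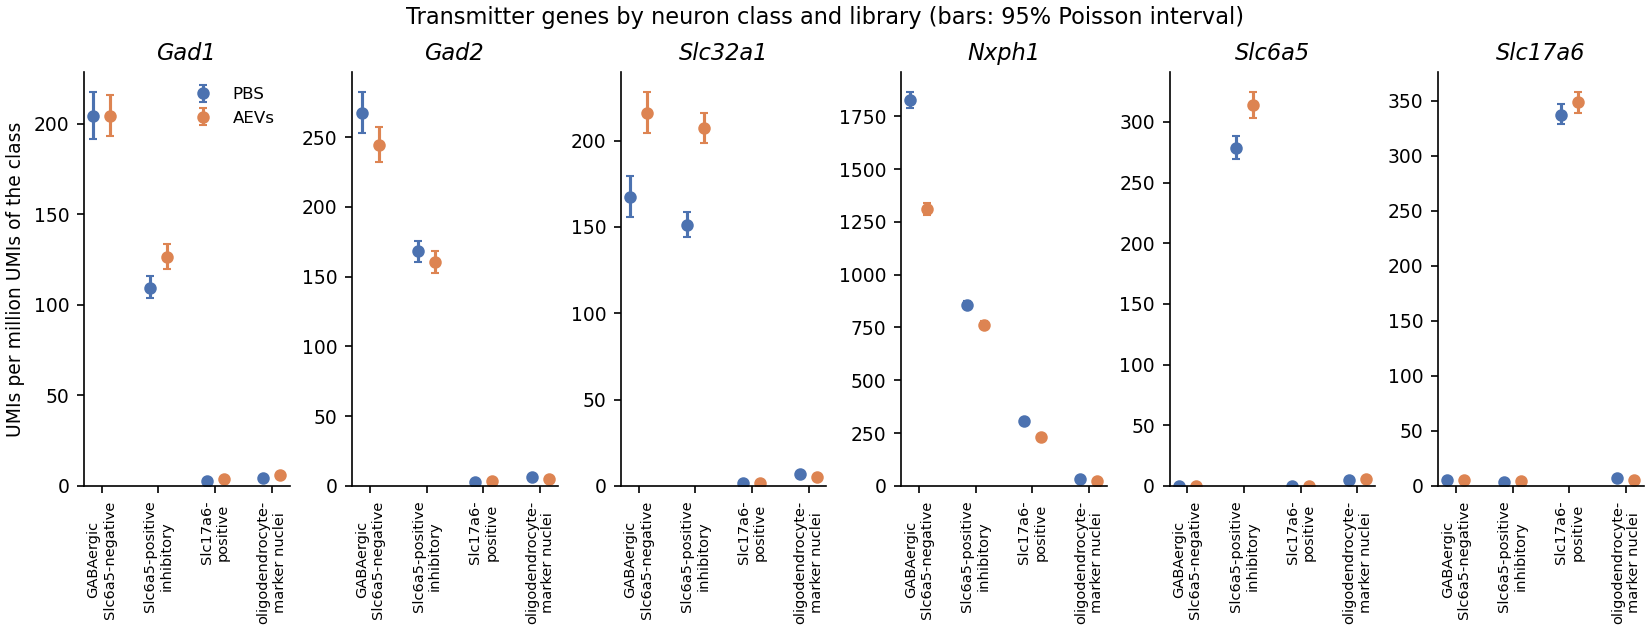
Levels of transmitter genes in CPM (vertical axes, each from 0) in GABAergic Slc6a5-negative, Slc6a5-positive inhibitory, Slc17a6-positive and oligodendrocyte-marker nuclei of PBS (blue) and AEVs (orange), with 95% Poisson intervals for counting error. Nxph1 was at 1827 and 1310.4 in the GABAergic Slc6a5-negative nuclei against 857 and 764 in the Slc6a5-positive ones, while Slc6a5 was at 0 by the rule.

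How many nuclei counted as Slc6a5-negative depended on depth. Among inhibitory nuclei of 1500 to 3000 UMIs, 84.6% in PBS and 72% in AEVs had no Slc6a5 UMI. Among those above 12000 UMIs the shares were 17.6% and 16.4%. A count of 0 at these depths therefore does not show that the transcript was absent, and a share of these nuclei may hold some Slc6a5. The next step outside the rule, a single Slc6a5 UMI, held 281 and 437 nuclei, in which Nxph1 stood at 1010.6 and 952 CPM, between the Slc6a5-negative and the Slc6a5-positive values.

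**Figure D2:**
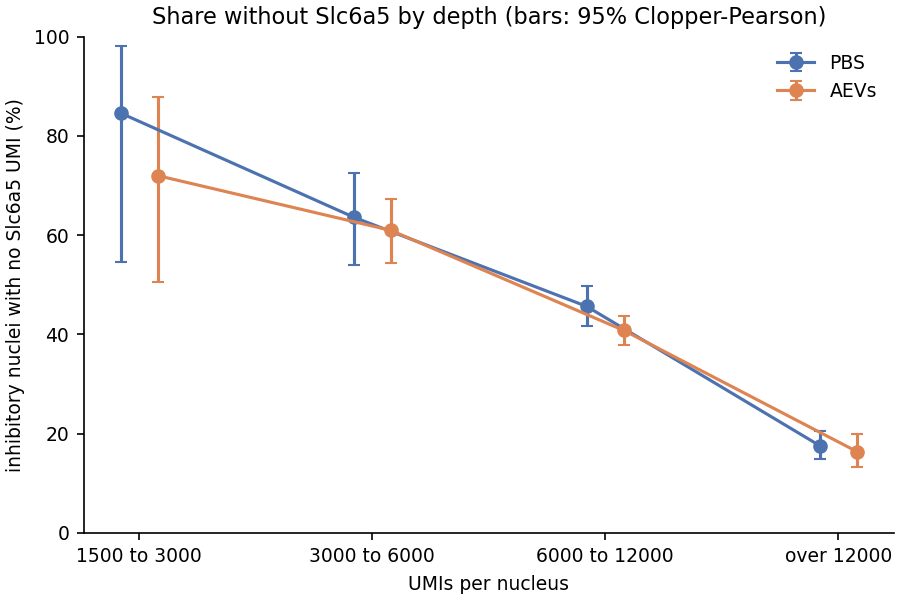
Share of inhibitory nuclei without a Slc6a5 UMI (vertical axis, percent) in 4 ranges of UMIs per nucleus (horizontal axis), with 95% Clopper-Pearson intervals. The share is lower in each deeper range, from 84.6% to 17.6% in PBS (blue) and from 72% to 16.4% in AEVs (orange).

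The other edges of the rule were as follows. The Gad1, Gad2 and Slc32a1 sum was exactly 2 in 61 PBS and 117 AEVs nuclei and exactly 3 in 69 and 100, with a median of 5 in both libraries. Nuclei with a sum of 1, just outside, numbered 108 and 165. A single Slc17a6 UMI was present in 24 and 33 of the members.

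These nuclei made up 12.9% (11.8 to 13.99) of neuronal nuclei in PBS and 13.6% (12.7 to 14.5) in AEVs by exact Clopper-Pearson intervals. The ratio of the shares was 1.06 (0.938 to 1.19), an interval that contains 1. Among inhibitory nuclei the shares were 33.6% and 37.0%, with a ratio of 1.10 (0.979 to 1.24). The inhibitory nuclei were shallower in AEVs, with medians of 11838 and 9344 UMIs. Within each range of depth the order was the reverse, for example 45.7% and 40.8% from 6000 to 12000 UMIs. The part of depth in the ratio was not tested. Over all nuclei past the limits they were 4.01% and 5.35%, a ratio of 1.33 (1.19 to 1.5), and neuronal nuclei as a whole were 31.2% and 39.4% of that population.

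RNA of other cells was present among these nuclei. The 10 oligodendrocyte markers summed to 1283 and 1064 CPM, against 22954 and 21124 in oligodendrocyte-marker nuclei, and none was at 0. Per nucleus they ranged from 0 to 1.17% and from 0 to 1.29% of UMIs. Summed astrocyte markers stood at 505 and 593 CPM, microglia and macrophage markers at 305 and 377, and fibroblast markers at 111 and 100. Endothelial markers stood at 13 and 33.9 CPM and Schwann cell markers at 16.8 and 15.5, with Pmp2 at 0 in both libraries. Erythroid markers stood at 19.2 and 54.0 CPM.

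Scrublet called 36 PBS (7.56%) and 100 AEVs (13.97%) of the nuclei as doublets, which were kept in the main values because the rule does not remove them. Clustering of the 1192 nuclei gave 20 subclusters, and in 5 of them at least 2 of the 10 leading genes were markers of oligodendrocytes, microglia, astrocytes or fibroblasts. Those 5 held 81 PBS (17.02%) and 142 AEVs (19.8%) nuclei, with 34 of the 36 and 97 of the 100 doublet calls. Their part in the results was not tested, and values without them, leaving 395 and 574 nuclei, are given where they change a reading.

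The remaining 15 subclusters are described by their leading genes, which defined them and are no result. One of them was cerebrospinal fluid-contacting neuron-like, with all 7 fixed markers of that type raised, 33 nuclei (13 and 20) and the leading genes Pkd1l2, Pkd2l1 and Myo3b. Pkd2l1 stood at 1570 CPM there, Gad2 at 533 and Npy at 17.6. Dcn, a matrix gene known from fibroblasts, was also among its 10 leading genes. Its median depth of 4919 UMIs was the lowest of the 20 subclusters.

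Several subclusters carried peptide genes of the dorsal horn. A Ndnf-led group of 45 nuclei had 2402 CPM of Npy (neuropeptide Y) and 1395 of Penk (the enkephalin precursor), with Gal at 9.20. The Tac1 and Tyr group of 93 nuclei had 976 CPM of Tac1 (the substance P precursor), 1499 of the receptor gene Rorb and 696 of Npy, with Gal at 4.27. Gal, the galanin gene, stood at 1457 CPM in the Hpse2 and Rspo3 group of 35 nuclei, at 1699 in the Cartpt group of 63 and at 803 in the Tacr3 group of 44. Pdyn (the dynorphin precursor) was at 275, 311 and 81.0 CPM in those same 3 groups. In the Tac2 group of 55 nuclei Gal was at 203 CPM and Pdyn at 74.4.

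The largest subcluster, of 200 nuclei, was led by Slit2, Grp, Adcyap1 and Piezo2 and had 94 CPM of Npy and 2.19 of Gal. The Eya2 group of 118 nuclei had 4763 CPM of Nxph1, the Rxfp2 and P2ry1 group of 32 had 517 of Calb2 (calretinin), and the Tll1 and Maf group of 60 had 153 of Cdh3 and 96.7 of Pvalb (parvalbumin). Nxph1, a marker of the whole set, ranged from 290 CPM in the Ndnf group to 4763 in the Eya2 group.

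**Figure D3:**
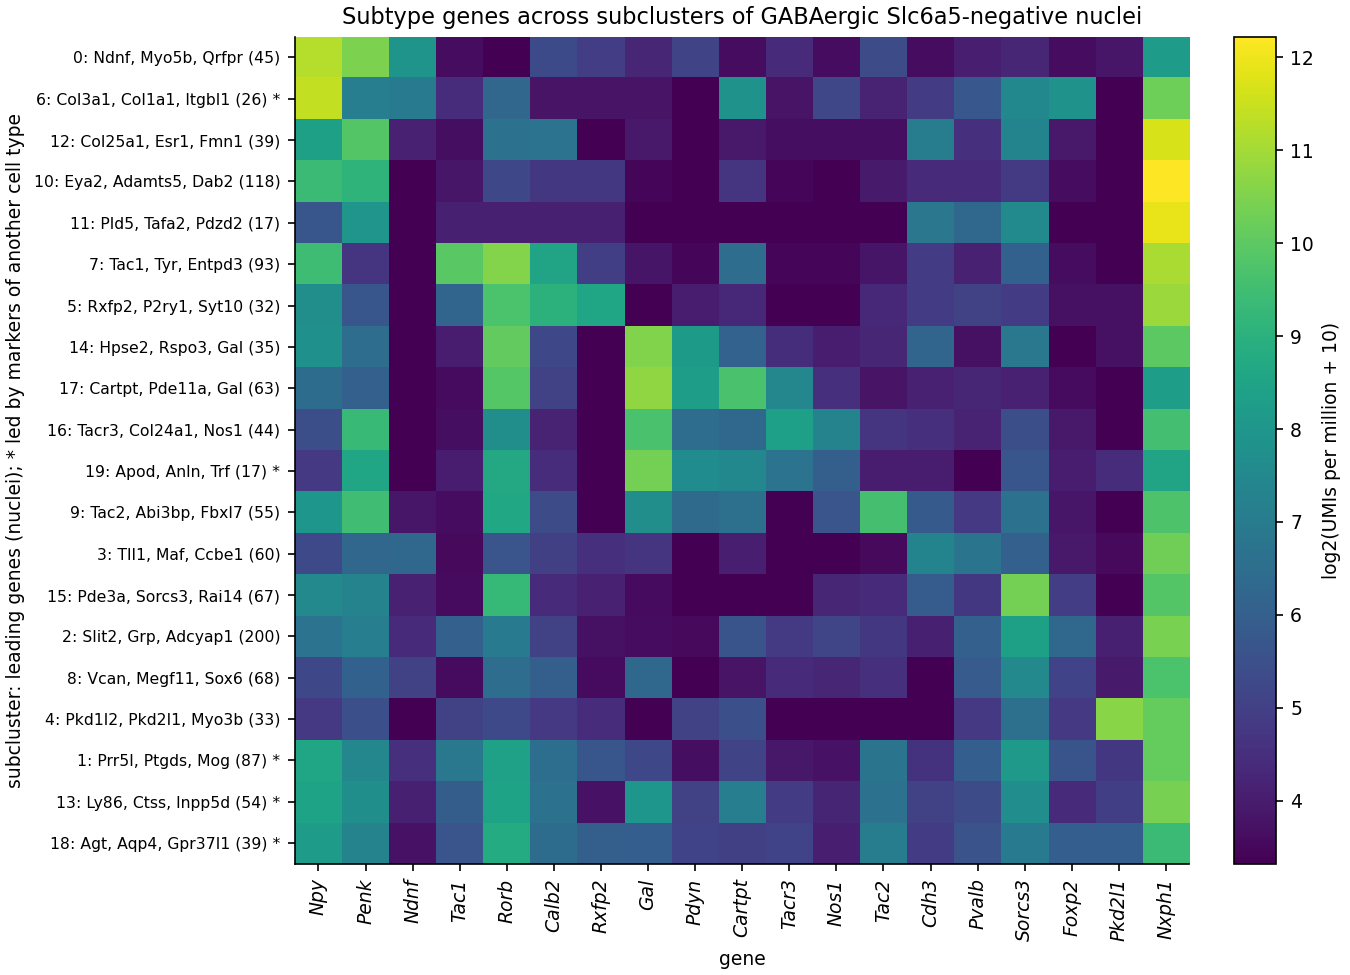
Levels of 19 genes (columns) in the 20 subclusters (rows, named by 3 leading genes with the number of nuclei), coloured by log2 of CPM plus 10. Gal and Pdyn are high together in the Hpse2, Cartpt and Tacr3 rows, Npy and Penk in the Ndnf row, and Pkd2l1 in the Pkd1l2 row, while rows with an asterisk are led by markers of another cell type.

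Pairing of transcripts within single nuclei was read without the 5 subclusters led by markers of other cells, requiring at least 2 UMIs of each gene. Of nuclei with Pdyn, 25 of 30 in PBS (83.3%) and 45 of 57 in AEVs (78.9%) also had Gal, against 6.58% and 9.48% of nuclei without Pdyn. Gal was also seen in 64.3% and 78.3% of Tacr3 nuclei and in 60.0% and 62.0% of Cartpt nuclei. No nucleus with Tac1 had Gal, 0 of 29 and 0 of 48, which allows shares of up to 11.9% and 7.40% by exact Clopper-Pearson intervals. The galanin and substance P precursors were thus seen in separate nuclei at this depth.

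Npy, by contrast, overlapped with several partners. Among Tac1 nuclei 79.3% and 83.3% had Npy and 89.7% and 87.5% had Rorb, against 33.3% and 32.5% and 25.1% and 34.8% of nuclei without Tac1. Penk was found in 46.9% and 49.8% of Npy nuclei, against 18% and 24.5% of the others. Median depth differed between the nuclei with and without Tac1, at 11743 and 9275 UMIs in PBS and 9540.5 and 7530.0 in AEVs, and the part of depth in these shares was not tested.

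The share of nuclei with a subtype transcript was read after thinning each nucleus to 1500 UMIs, which left none out. Npy was seen in 23.5% and 25.7% of thinned nuclei, Penk in 17.6% and 26.3%, Rorb in 22.3% and 30.2%, and Gal in 9.66% and 14.2%. Oligodendrocyte-marker nuclei thinned the same way, with median depths of 2600 and 2245 UMIs before thinning, had Npy in 2.62% and 2.10%, Penk in 2.01% and 2.87% and Gal in 0.551% and 0.902%. Unthinned shares of these nuclei were 51.3% and 47.9% for Npy, 40.3% and 46.1% for Penk, and 14.9% and 20.3% for Gal. All 3 peptides were therefore seen more often than in cells that should lack them. Parvalbumin, at 4.2% and 4.61% against 3.22% and 3.31%, stood barely above that background. Pnoc, the nociceptin precursor, was seen in 17.4% and 23.9% against 0.463% and 0.621%, or in 42.0% and 46.6% unthinned.

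En1, the defining factor of V1 interneurons, was seen in 1.05% and 0.698% of the unthinned nuclei, and thinning left it in 0 of 476 and in 0.140%. These are shares of nuclei with a UMI of a low gene and set no limit on the share of V1 cells. Chrna2, the Renshaw cell marker, and Wt1 were at 0 in both libraries after thinning. The thinned share of Piezo2, 0.840% and 0.698%, did not exceed the 10.8% and 2.93% of oligodendrocyte-marker nuclei. It is therefore not read as a share of expressing nuclei. The Slit2 subcluster held 116 Piezo2 UMIs, at 63.8 CPM against 9.17 in the other nuclei, and 1 PBS nucleus held 71 UMIs of this gene. For Pkd2l1, in 2.94% and 3.63% against 4.39% and 6.11%, the share over the whole library is not read as a share of expressing nuclei. Of its UMIs, 268 lay in the cerebrospinal fluid-contacting neuron-like subcluster, at 1570 CPM against 7.55 in the other nuclei. Pkd1l2, another leading gene of that subcluster, was seen in 2.94% and 3.49% against 0.0441% and 0.0401%.

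The nuclei were set beside the Slc6a5-positive inhibitory nuclei of the same library, over genes that no class rule used. Of 13301 genes, 7.38% were past 1.5-fold higher and 6.45% past 1.5-fold lower in both libraries. By the smaller ratio of the 2 libraries Pkd1l2 was highest, at 54.4 and 48.9 CPM against 1.01 and 0.477. In the 33 cerebrospinal fluid-contacting neuron-like nuclei it stood at 2771 CPM, against 7.46 in the other members. Pkd2l1, Myo3b, Slc26a4 and Pkhd1l1, also among the 10 highest, were leading genes of that subcluster too. Tac1 stood at 112 CPM in both libraries against 6.79 and 5.63. Syt10, a synaptotagmin, stood at 98.5 and 144 CPM against 9.97 and 13.6, and Baiap3, a dense-core vesicle factor, at 108 and 144 against 14.9 and 18.5. Tyr, which encodes tyrosinase, stood at 45.8 and 44.8 CPM against 1.09 and 1.33. In the Tac1 and Tyr group Tac1 stood at 976 CPM and Tyr at 388, against 29.3 and 12.6 in the other members. These levels are therefore not read as traits of all the nuclei.

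The 10 named genes with lower levels than in the Slc6a5-positive nuclei were Slc4a9, Hapln1, Esrrb, P2rx6, Cyp39a1, Acan, Kcns3, Rbm20, Scn4b and Trim43c. Hapln1, a link protein of perineuronal nets, stood at 2.35 and 3.30 CPM against 18.8 and 23.6, and Acan (aggrecan) at 4.48 and 1.98 against 19.7 and 12.97. The potassium channel subunit Kcns3 stood at 8.53 and 6.26 CPM against 36.5 and 34.7, and the sodium channel subunit Scn4b at 10.02 and 6.59 against 42.3 and 38.6. Of the 21 neuropeptide genes measured in this comparison, 11 were past 1.5-fold higher in both libraries and 1 lower. The Slc6a5-positive nuclei were deeper, with medians of 15413.5 and 11545 UMIs.

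Against Slc17a6-positive nuclei, 4.81% of 13901 genes were past 1.5-fold higher and 5.24% lower in both libraries. Transcription factors of the inhibitory lineage and subtype lists were among the highest. Pax2 stood at 150 and 116 CPM against 3.42 and 2.37, Pax8 at 73.1 and 69.5 against 0.633 and 0.723, and Sall3 at 101 and 91.5 against 2.47 and 2.24. Lmx1b, a factor of excitatory dorsal horn neurons, was at 1.71 and 1.32 CPM against 34.1 and 33.5. The neurotensin gene Nts was at 9.17 and 15.3 against 172 and 293, and the calcium channel subunit Cacna2d1 at 66.7 and 44.3 against 1149 and 1088. Over the whole list of inhibitory lineage and positional factors, 7 of 22 measured were past 1.5-fold higher in both libraries and 5 lower.

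The AEVs and PBS nuclei were compared over 10426 genes with at least 100 UMIs. Past 1.5-fold, 799 genes (7.66%) were higher and 150 (1.44%) lower in AEVs, and the median log2 ratio was 0.09. With that median set to 0, 511 were higher and 279 lower. In Slc6a5-positive inhibitory nuclei 9.39% were higher and 1.98% lower, and in Slc17a6-positive nuclei 8.57% and 1.78%, with the same 2 libraries behind all 3 comparisons. Ratios went with the length of the gene in the annotation. The 2606 genes with the shortest span, up to 13833 bases, had a median log2 ratio of 0.31 with 18.5% past 1.5-fold higher, and the 2606 with the longest, from 80515 bases, had a median of -0.10 with 2.00% higher and 2.49% lower. The medians of these short and long genes were 0.36 and -0.12 in the Slc6a5-positive and 0.32 and -0.09 in the Slc17a6-positive nuclei. The part of gene length in the ratios below was not tested.

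**Figure D4:**
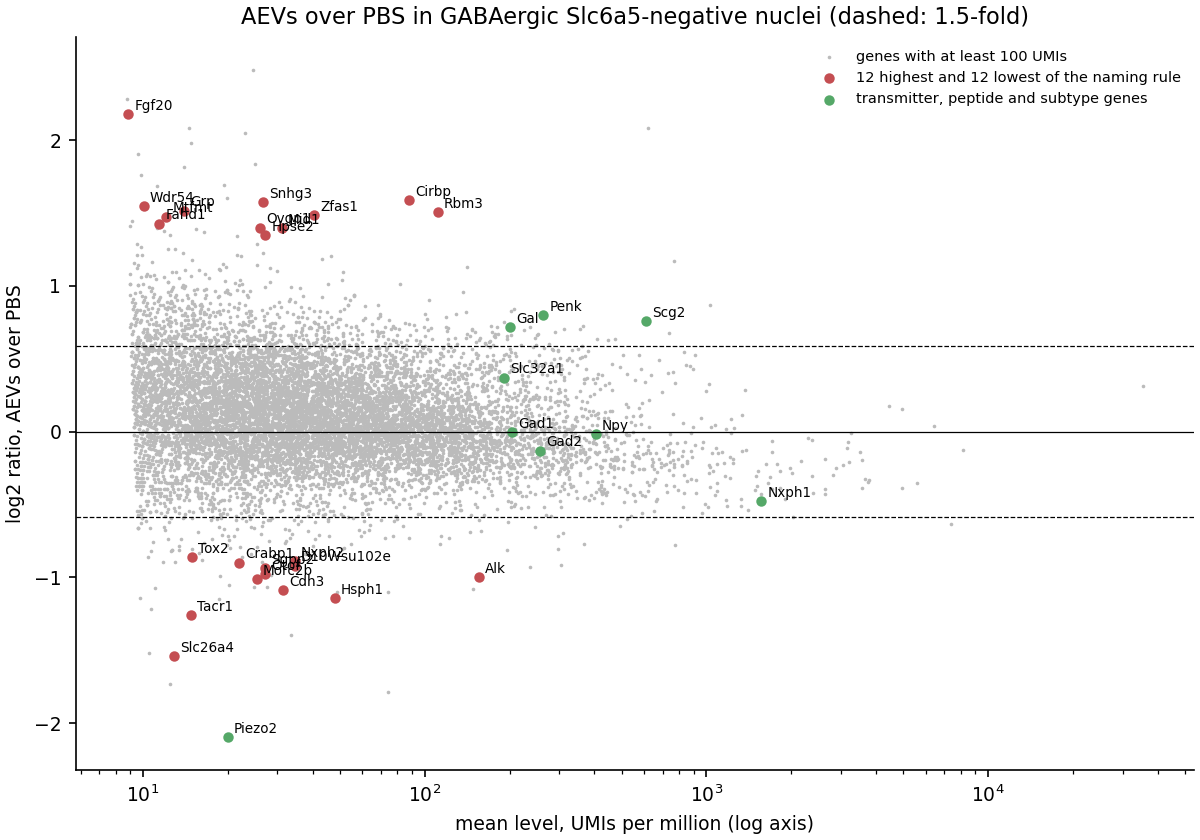
Log2 ratio of AEVs over PBS (vertical axis) against mean level in CPM (horizontal log axis) for 10426 genes in GABAergic Slc6a5-negative nuclei, with dashed lines at 1.5-fold. Red points are the 24 genes with the highest and lowest ratios under the naming rule, from Fgf20 at 2.18 to Slc26a4 at -1.54, and green points are transmitter, peptide and subtype genes.

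The GABA machinery differed by less than 1.5-fold. Gad1 had a log2 ratio of -0.00 (-0.12 to 0.12) and Gad2 of -0.13 (-0.24 to -0.02). Slc32a1 had the highest ratio of this list, 0.37 (0.24 to 0.50), and was higher in 13 of the 15 subclusters measured. Subclusters measured are those not led by markers of other cells and with at least 20 UMIs of a gene over both libraries. Slc32a1 is the 1 gene of this list among those with the shortest span, whose median was 0.31. In Slc6a5-positive inhibitory nuclei, also selected on this gene, it stood at 151 and 207 CPM. The enzymes of GABA breakdown, Abat and Aldh5a1, had log2 ratios of -0.30 and -0.47. None of the 8 measured genes of the list passed 1.5-fold, and their median was -0.01. The rule selects on 3 of these genes, so their ratios describe the selected nuclei.

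Receptors and partners at the inhibitory synapse were also within 1.5-fold. The 15 GABA receptor genes had a median log2 ratio of -0.12, from Gabbr2 (a GABA-B receptor subunit) at -0.39 to Gabrg1 at 0.33, and none passed 1.5-fold. The genes with the longest span, whose median was -0.10, include 13 of these 15. The 5 glycine receptor and transport genes had a median of -0.15. Among 19 inhibitory synapse organisers, with a median of -0.17 and none past 1.5-fold, Nxph1 was at -0.48 (-0.52 to -0.44), higher in 2 of 15 subclusters and at 5577 and 4018 CPM in the Eya2 group, and its partner Nrxn3 at 4933 against 6292 CPM, a log2 ratio of -0.35. Of 11 chloride balance genes none passed 1.5-fold, with the chloride exporter Slc12a5 at -0.01, the importer Slc12a2 at -0.28 and the kinase Stk39 at -0.56.

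Some neuropeptide genes were higher in the AEVs nuclei and others were not. Of 20 measured among 24, 8 were past 1.5-fold higher and none lower, against 7.66% and 1.44% of all genes, 6 had ratios below 0, and the median log2 ratio was 0.33 against 0.09. Of the 20, 17 are among the genes with the shortest span, whose median was 0.31 with 18.5% past 1.5-fold higher. Penk (chromosome 4, 4133531 to 4138819, minus strand) stood at 192 CPM in PBS and 335 in AEVs, a log2 ratio of 0.80 (0.69 to 0.92), and was higher in 12 of 12 subclusters measured. In the Ndnf group it stood at 917 and 1723 CPM, in the Eya2 group at 377 and 706 and in the Col25a1 group at 620 and 1245, while in the Slit2 group it was at 129 in PBS and 130.5 in AEVs. Scg2, the secretogranin of dense-core granules (chromosome 1, 79434669 to 79440120, minus strand), stood at 452 and 765 CPM, a log2 ratio of 0.76 (0.68 to 0.83), and was higher in 14 of 14, with 1356 and 1948 CPM in the Tac1 group and 1278 and 2168 in the Cartpt group. Scg5, the chaperone of a prohormone convertase, stood at 320.0 and 497 CPM (0.63) and was higher in 14 of 15. These 3 genes were higher in AEVs in nearly all subclusters measured. The same list had medians of 0.21 in Slc6a5-positive inhibitory nuclei, with 5 of 19 past 1.5-fold higher and 1 lower, and of 0.11 in Slc17a6-positive nuclei, with 6 of 20 higher and 3 lower.

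Gal (chromosome 19, 3409915 to 3414544, minus strand) stood at 152 and 249 CPM, a log2 ratio of 0.72 (0.59 to 0.85). Within the Cartpt subcluster it was at 1353 and 1915 CPM, in the Hpse2 one at 1259 and 1647, and in the Tacr3 one at 744 and 832, but in the Tac2 one at 293 and 155. When both libraries were given the same mix of subclusters the log2 ratio was 0.43, under 1.5-fold. Pdyn stood at 26.6 and 44.8 CPM, a log2 ratio of 0.75, and 0.50 with the same mix. The other genes of the list past 1.5-fold were Nts at 0.74, Adcyap1, which encodes the peptide PACAP, at 1.41, and Grp at 1.52. For Nts 10 nuclei held 76.7% and 57.0% of the UMIs, and the ratio was 0.05 among nuclei with at least 4 UMIs over Gad1, Gad2 and Slc32a1. For Adcyap1 10 nuclei held 75.9% and 72% of the UMIs, and the ratio was 0.32 after thinning.

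Peptide genes not past 1.5-fold included Npy, Tac1, Sst and Tac2. Npy stood at 406 and 402 CPM (log2 ratio -0.01, -0.10 to 0.07), Tac1 at 112 in both (-0.00) and Sst, the somatostatin gene, at 78.0 and 79.3 (0.02). Tac2 stood at 71.4 and 48.3 CPM, a log2 ratio of -0.56. Grp was past 1.5-fold at a log2 ratio of 1.52, but 10 nuclei held 91.3% of its 126 AEVs UMIs and 1 nucleus held 56 of them. Its log2 ratio was -0.00 after thinning.

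The promoters of the peptide genes were read for the cAMP response element, the letters TGACGTCA on either strand, which is a palindrome known from peptide gene promoters. It lay within 250 bases before the RefSeq start of 4 of the 19 peptide genes that could be matched. Over all 27025 genes the share was 1.77%, and over 32851 promoters 1.55%. The 4 windows are shown because they set genes with unequal ratios side by side, on GRCm38.p6 and read 5′ to 3′ on the strand of the gene, with the element in capitals.
Scg2, chr1:79440077-79440104, minus strand: gctgagccggTGACGTCAgcgtggaatg
Chgb, chr2:132781560-132781587, plus strand: ggctgctccgTGACGTCAgggctgagcg
Sst, chr16:23890875-23890902, minus strand: cctccttggcTGACGTCAgagagagagt
Cartpt, chr13:99900778-99900805, minus strand: cggcgggcatTGACGTCAaacggcagcg
The log2 ratios of these genes were 0.76, 0.24, 0.02 and -0.18 in the order shown. Genes with the same element thus had ratios from past 1.5-fold higher to slightly lower, and Penk and Gal, both past 1.5-fold, had no such letters in this window. A match is a description of the sequence and not of a bound site.

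Dorsal subtype genes included both higher and lower members. Of 23 measured, 7 were past 1.5-fold higher and 2 lower, against 7.66% and 1.44% of all genes, with a median log2 ratio of 0.05. Besides Gal, Pdyn and Penk, the higher ones were the relaxin-family receptor Rxfp2 (13.4 and 31.0 CPM, 1.21), the neurokinin receptor Tacr3 (18.1 and 36.1, 0.99), the somatostatin receptor Sstr2 (37.7 and 68.9, 0.87) and Calb2 (58.2 and 96.1, 0.72). Sstr2 was seen in 3.78% and 8.94% of thinned nuclei against 0.0441% and 0.160% of oligodendrocyte-marker nuclei. It was higher in 5 of 5 subclusters measured. With the same mix of subclusters 4 of the 7 were under 1.5-fold, Gal at 0.43, Pdyn at 0.50, Tacr3 at 0.56 and Calb2 at 0.54. Penk, Rxfp2 and Sstr2 were then at 0.79, 0.88 and 0.70. For Rxfp2 10 nuclei held 74.6% and 55.9% of the UMIs, and it could be measured in 2 subclusters.

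Lower were Tacr1, the substance P receptor, and Cdh3, a cadherin. Tacr1 stood at 20.9 and 8.73 CPM, a log2 ratio of -1.26 (-1.77 to -0.76), and was seen in 3.57% and 0.698% of thinned nuclei. Cdh3 stood at 42.6 and 20.1 CPM, a log2 ratio of -1.08 (-1.42 to -0.75), was seen in 6.30% and 2.93% of thinned nuclei and was lower in 4 of 5 subclusters. In Slc6a5-positive inhibitory nuclei their log2 ratios were -0.08 and -0.10. The difference between the 2 sets of nuclei was not tested.

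Ventral and midline subtype genes numbered 9 measured, with 1 past 1.5-fold higher and 3 lower, against 7.66% and 1.44% of all genes. Piezo2, a mechanosensitive channel, had a log2 ratio of -2.10 at 32.4 and 7.58 CPM, but 10 nuclei held 84.9% of its PBS UMIs and the ratio after thinning was -0.33. Foxp2 was at 37.7 and 19.1 CPM (-0.98), but 10 nuclei held 71.2% of its PBS UMIs and the ratio after thinning was -0.53. Pkd2l1 was at 23.7 and 39.1 CPM (0.72) and at 0.48 without the subclusters led by markers of other cells.

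Transcription factors of the inhibitory lineage and positional list were mostly within 1.5-fold. Of 19 measured, none was past 1.5-fold higher and 2 were lower, against 7.66% and 1.44% of all genes. The 2 were Pbx3 at 95.9 and 58.3 CPM and Zfhx3 at 142 and 86.3, both with a log2 ratio of -0.72. Pbx3 was at -0.54 with the same mix of subclusters. Pax2 was at -0.37. The 17 regional Hox genes had a median of -0.01, with Hoxc10, Hoxa10 and Hoxd3 lower at -0.67, -0.62 and -0.59 and Hoxa7 the highest at 0.52. Hoxa7 was higher in 11 of 13 subclusters.

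Counts of excitability and release genes are read against the 7.66% of all genes past 1.5-fold higher and 1.44% lower. Of the genes with the longest span 2.00% were higher and 2.49% lower. The 39 potassium channel genes had a median log2 ratio of -0.14 with 1 past 1.5-fold higher and 2 lower, Kcna2 at 56.9 and 34.6 CPM (-0.72) and Kcnab2 at -0.75. Of 27 sodium, calcium and HCN channel genes 2 were lower and none higher, with Scn2b at -0.73. The 22 glutamate receptor genes had a median of -0.12 with 1 lower. Of 28 release genes 2 were lower, the vesicle protein gene Sv2b at 32.2 and 18.6 CPM (-0.79) and the synapsin Syn3 at 301 and 191 (-0.66), which was lower in all 14 subclusters measured. The medians of these 4 lists, from -0.17 to -0.12, lay near the -0.10 of the genes with the longest span, which held 24, 18, 19 and 14 members of the potassium channel, sodium, calcium and HCN channel, glutamate receptor and release lists.

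Axon and cytoskeletal genes passed 1.5-fold in 4 cases, all of them lower, where 1.44% of all genes were lower. Among 29 guidance genes, of which 28 are among the 2606 with the longest span, the median log2 ratio was -0.16, and the one past 1.5-fold was the Slit receptor Robo1, at 978 and 570 CPM (-0.78, -0.84 to -0.72), lower in 12 of 13 subclusters measured. The 3 neurofilament genes Nefh, Nefm and Nefl were lower at -0.97, -0.64 and -0.60, and no other of the 19 neurofilament and microtubule genes passed 1.5-fold. Without the subclusters led by markers of other cells Nefm and Nefl were at -0.54 in both cases and Nefh at -1.04.

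Of the cold-inducible and heat shock genes, 2 of 14 measured were past 1.5-fold higher and 2 lower, against 7.66% and 1.44% of all genes. Their median log2 ratio was -0.17. Cirbp and Rbm3, RNA-binding proteins known to be induced by mild cooling, were higher in AEVs, each in 14 of 14 subclusters measured. Cirbp (chromosome 10, 80165985 to 80172786, plus strand) stood at 43.7 and 131 CPM, a log2 ratio of 1.59 (1.37 to 1.82), and was seen in 32.1% and 61.0% of nuclei. Rbm3 (chromosome X, 8138975 to 8145880, minus strand) stood at 58.0 and 165 CPM, a log2 ratio of 1.51 (1.31 to 1.70). Over the 15 subclusters not led by markers of other cells, Rbm3 ranged from 28.6 to 97.5 CPM in PBS and from 120 to 268 in AEVs. The smallest of them held 13 PBS and 4 AEVs nuclei. These subclusters share 2 libraries and are not replicates. Hsph1, a co-chaperone of the heat shock response, was lower at 65.9 and 29.8 CPM, a log2 ratio of -1.14 (-1.42 to -0.87), and was higher in 0 of 9 subclusters. Cryab was at -1.10 and Hsp90aa1 at -0.30.

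The same genes stood alike in the other neurons of these libraries. Cirbp had log2 ratios of 1.41 and 1.43 in Slc6a5-positive inhibitory and Slc17a6-positive nuclei, Rbm3 of 1.40 and 1.24, and Hsph1 of -1.25 and -1.30. A heat shock element, read as GAANNTTC or TTCNNGAA on either strand, lay within 250 bases before the start of 6 of the 12 matched genes of the list. Over all 27025 genes the share was 14.5%, and over 32851 promoters 12.8%. The Hsph1 window, on GRCm38.p6 with the element in capitals, is shown because this gene had the lowest ratio of the list.
Hsph1, chr5:149636352-149636379, minus strand: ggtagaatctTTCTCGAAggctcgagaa
The match describes these letters only, and Hspd1 and Hspe1, which also hold the element, had log2 ratios of -0.11 and -0.06. The windows of Hspd1 and Hspe1 overlap on opposite strands of chromosome 1, so they are not separate cases among the 6 genes.

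Genes of stress, injury and metabolism gave the following values. Ratios above 0 were seen for 61.3% of all 10426 genes. Of 40 nuclear-encoded oxidative phosphorylation genes 36 were higher, 2 past 1.5-fold (Ndufb9 at 0.64 and Sdhb at 0.62), with a median log2 ratio of 0.29, close to the 0.31 of the genes with the shortest span. Of 15 clock genes 14 were higher and none passed 1.5-fold, with a median of 0.34 and the output gene Dbp at 0.55. The 16 glucocorticoid-responsive genes had 4 past 1.5-fold higher, among them the metallothionein Mt1 at 353 and 545 CPM (0.63) and Ddit4 at 18.97 and 40.7 (1.10).

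Injury and stress lists are read against the 7.66% of all genes past 1.5-fold higher. Of 22 neuronal injury and regeneration genes 4 were past 1.5-fold higher and none lower, with a median of 0.08 against 0.09, with the filopodial myosin Myo10 at 1.02 and the growth cone protein Basp1 at 134 and 205 CPM (0.61, higher in 13 of 14 subclusters). Among 11 p53 targets 3 were higher, led by the cell cycle inhibitor Cdkn1a at 9.17 and 29.7 CPM (1.69). Of 14 integrated stress response genes 2 were higher, Cebpb at 1.90 and Slc3a2 at 0.72, and 1 lower, Slc7a11 at -0.67. Of 10 immediate early genes only Egr1 passed 1.5-fold, lower at -0.95.

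Some values in these lists moved with nuclei that carried markers of other cells. The interferon list had 5 measured genes, 3 past 1.5-fold higher, and 2 measured without the subclusters led by such markers. Lcn2, known from reactive astrocytes, had a log2 ratio of 1.84, with 144 of its 236 AEVs UMIs in 1 nucleus, and 0.52 without those subclusters. Hspb1 was at 0.00 over all nuclei, with 202 of its 264 PBS UMIs in 1 nucleus, and at 1.91 without those subclusters. Mt1, with 631 of its 1655 PBS UMIs in 1 nucleus, was at 0.89 without them. Of the peptide genes, 9 of 20 were past 1.5-fold higher without these subclusters.

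Beyond the lists, the naming rule gave 12 genes of each direction. The highest was Fgf20, a fibroblast growth factor, at 3.20 and 14.5 CPM (log2 ratio 2.18, 1.38 to 3.08), in 15 PBS and 80 AEVs nuclei. The small nucleolar RNA host genes Snhg3 and Zfas1 were at 1.58 and 1.49, where reads of Zfas1 and of its antisense neighbour cannot be told apart without the strand setting, and the ubiquitin ligase Mid1 at 1.40. Wdr54, Mtfmt, Fahd1 and Ovgp1 lay between 1.40 and 1.55. Hpse2 was at 1.35 and at 0.90 without the subclusters led by markers of other cells.

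On the lower side stood Alk, a receptor tyrosine kinase, at 207 and 104 CPM (log2 ratio -0.996, -1.14 to -0.85). Alk was also at -0.88 and -0.93 in Slc6a5-positive inhibitory and Slc17a6-positive nuclei. Slc26a4, an anion exchanger found mainly in the cerebrospinal fluid-contacting neuron-like subcluster, was at 19.2 and 6.59 CPM (-1.54), with 88.9% and 85.0% of its UMIs in 10 nuclei of each library. The others, Morc2b, Otof, Sgpp2, D10Wsu102e, Crabp1, Nxph2 and Tox2, lay between -1.01 and -0.86. Crabp1, a retinoic acid-binding protein, was at -0.90 here and at 0.87 and 0.62 in the 2 other sets of neurons, and this difference was not tested.

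**Figure D5:**
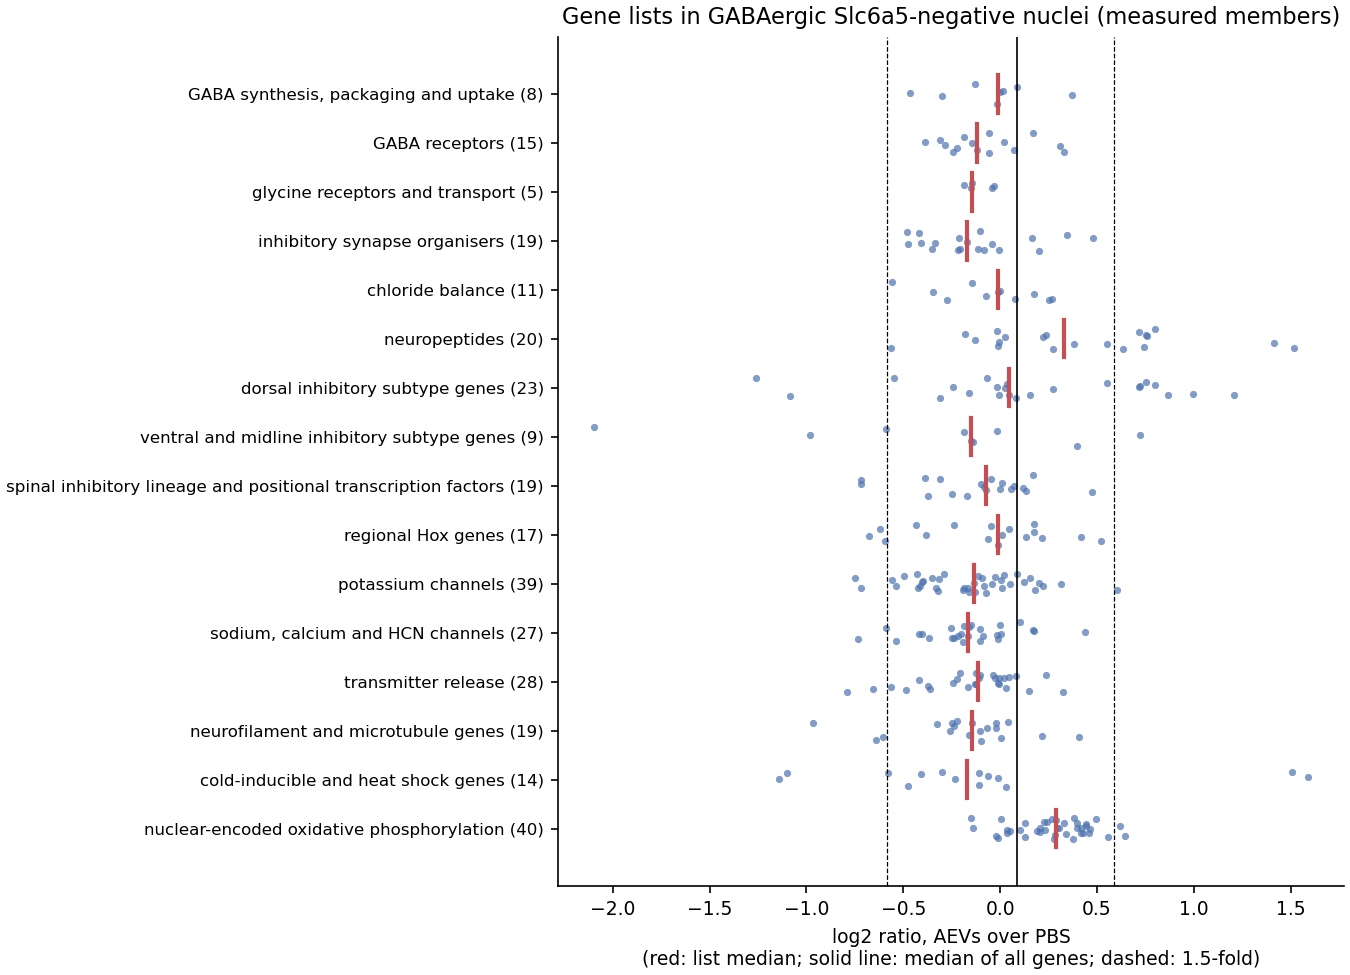
Log2 ratio of AEVs over PBS (horizontal axis) for the measured members of 16 gene lists (rows, number measured in parentheses) in GABAergic Slc6a5-negative nuclei, with the list median in red, the median of all genes as a solid line and 1.5-fold as dashed lines. Neuropeptide genes reach past 1.5-fold on the higher side in 8 cases, while GABA synthesis, receptor and synapse genes lie inside the dashed lines.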

How the data were processed

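Nuclei were isolated from frozen cord and read with a SeekGene droplet 3-prime kit, per the labels' protocols. The deposited matrices hold unscaled UMI counts, 1 whole number for a gene in a nucleus. The submitters' processing notes name Seurat and mm10; the aligner, the annotation, the strand setting and whether free RNA or doublets were removed: none of these is given in the sources used here. From these counts, UMIs were summed over the nuclei of the rule in each library and divided by their total, and a gene was read when it had at least 100 UMIs over both libraries. Since each group is 1 pool, no test across samples was made and a gene past 1.5-fold is described as higher or lower. Levels carry exact Poisson, ratios exact conditional binomial and shares exact Clopper-Pearson intervals at 95%. Intervals and limits cover counting error only.

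Earlier results of these data were known when the members, the 25 gene lists and the naming rule were chosen. Named are the 12 highest and 12 lowest ratios among genes seen in at least 2% of nuclei in the library where higher and at no less than 0.25 of the level of the cell class where they are highest, without mitochondrial, ribosomal protein, hemoglobin and predicted genes, the 2 highest and 2 lowest of each list, and any member of the transmitter, receptor, synapse, chloride, peptide, subtype and transcription factor lists. For contrasts with other neurons, 10 genes each way could be named by the smaller of the 2 libraries' ratios. Members of other lists outside this rule, such as Hspb1, Mt1 and Nefl, were chosen after their values were seen.

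Doublets were called with Scrublet in scanpy 1.11.5 on nuclei with at least 500 UMIs and 300 genes, at score thresholds of 0.164 and 0.141, which marked 5.21% and 8.26% of nuclei. The nuclei of the rule were clustered on 2000 variable genes, 25 principal components and 15 neighbours. Leiden clustering was run with igraph 0.11.9 at resolution 1, without batch integration. Identifiers were matched to a GENCODE annotation of mm10 (32158 of 32285), which gives the coordinates and gene spans, and promoters are from RefSeq on GRCm38.p6. The scripts used Python 3.11.15, numpy 2.4.6, scipy 1.17.1, pandas 2.3.3 and matplotlib 3.10.9 and were tested on simulated counts. Leaving out subclusters led by markers of other cells was chosen after seeing the data.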

Additional observations from a re-analysis of the deposited data

How the results depend on the processing

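No paired analysis was possible because each group is 1 pooled library and no test was made. The share ratio among neuronal nuclei stayed between 1.01 and 1.13 under every alternative run. The 799 genes past 1.5-fold higher became 241 when each nucleus was thinned to 1500 UMIs, 511 when the median log2 ratio was set to 0, 1850 with genes of at least 20 UMIs and 222 with genes of at least 400. The 150 lower genes became 279 with the median set to 0, 533 with at least 20 UMIs and 50 with at least 400. Of 2020 values of 202 genes under 10 alternatives, 1825 stayed within their counting interval, 193 moved and 2 that were past 1.5-fold changed sign: Grp was at -0.0040 after thinning, and Lcn2 at -0.21 with doublet calls left out. Ratios within 1.5-fold changed sign in a further 152 cases. Over genes, lists and shares thinning moved 105 values, the most of any alternative, and it leaves the fewest UMIs per gene. Depth limits every statement on low genes: nuclei with no Slc6a5 UMI went from 84.6% to 17.6% of inhibitory nuclei with depth in PBS.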
